A study of Rattus norvegicus with 2 samples.

Results

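A set of 10 genes of the p53 response and the Bcl2 family was followed in rat OPCs. Oligodendrocyte precursor cells, or OPCs, are glial progenitors from which the myelinating cells of the brain and spinal cord arise. The genes were taken by gene symbol from the deposited expression table, and all 10 were found among its 17455 genes. The series holds 2 RNA-seq libraries of total RNA from wild-type rat OPCs, both transfected with a kit from Lonza. One received an empty vector and is labelled control (called vector here), and the other received Slit1, which encodes a secreted ligand of the Robo receptors (called Slit1 here). The age of the rats, the share of cells transfected and the time from transfection to harvest were not stated in the sources used here. With 1 library per group no difference has a replicate check, and no p-value is given.

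The transcription factor p53 is stabilised by DNA damage and other stresses and switches on genes that stop the cell cycle, repair DNA or start cell death. It also switches on Mdm2, a ubiquitin ligase that marks p53 for destruction, so that the level of Mdm2 mRNA is a common readout of p53 activity. The Bcl2 family decides at the mitochondrial surface whether a cell enters apoptosis: Bcl2, Bcl2l1 (Bcl-xL) and Mcl1 hold back the pore-forming proteins Bax and Bak1, and BH3-only proteins such as Bbc3 (Puma) and Pmaip1 (Noxa) block these guards. In the oligodendrocyte lineage many newly formed cells die during development, and this pathway is one of those that set their number.

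Depth was alike, with 18817462 estimated counts for vector and 18998770 for Slit1. The level of Slit1 was 1.70 TPM in vector and 229.7 TPM in Slit1. TPM is the number of transcripts of a gene per 1000000 transcripts, corrected for gene length. The 7 OPC markers examined, among them Pdgfra, Cspg4 and Olig2, were all present, with summed levels of 2047 TPM in vector and 2085 TPM in Slit1. Of these, 2 were at least 1.5-fold higher in Slit1 and 0 lower: Sox10 was at 71.4 and 218.0 TPM and Gpr17 at 109.8 and 263.0 TPM, while Ptprz1 was at 913.6 and 688.2 TPM. All 7 astrocyte markers were present as well and summed to more, 8637 and 9545 TPM. Gfap alone, the filament protein of astrocytes, was at 4694 and 6130 TPM, so the cultures were not OPCs alone by their RNA. Of these 7, 2 were at least 1.5-fold lower in Slit1 and 0 were higher. The lower ones were Slc1a2, at 215.4 and 94.1 TPM, and Gja1, at 506.2 and 295.7 TPM. The sum, led by Gfap, was higher in Slit1 while these 2 were lower. Of 7 myelin markers, 6 passed the floor of expression and all 6 were at least 1.5-fold higher in Slit1, with summed levels of 808 and 3621 TPM. Neuronal markers summed to 161.5 and 164.4 TPM, mostly Map2, and fibroblast and mural markers to 23.2 and 22.1 TPM. Microglial markers summed to 3.02 and 5.19 TPM and endothelial ones to 5.96 and 4.47 TPM, and Itgam was at 0 in vector, as were Dcn and Cldn5. The part of these cell types in the differences below was not tested. In bulk RNA, fewer cells of a type and less RNA per cell cannot be told apart.

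Promoter windows from RefSeq (build GRCr8) are shown for Ccng1, Mdm2 and Eda2r, p53 target genes that were each at least 1.5-fold lower in Slit1 in TPM. Pmaip1, also lower by that limit, has a window that is not shown here. Each window of 300 bases runs from 250 bases before the annotated start to 50 bases after it. Ccng1 lies on chr10:25684827-25685126 (minus strand), Mdm2 on chr7:55200742-55201041 (minus strand) and Eda2r on chrX:66280571-66280870 (minus strand). Capitals mark the p53 element in Ccng1 and the letters TATAAA in Eda2r, and nothing is marked in Mdm2.
Ccng1: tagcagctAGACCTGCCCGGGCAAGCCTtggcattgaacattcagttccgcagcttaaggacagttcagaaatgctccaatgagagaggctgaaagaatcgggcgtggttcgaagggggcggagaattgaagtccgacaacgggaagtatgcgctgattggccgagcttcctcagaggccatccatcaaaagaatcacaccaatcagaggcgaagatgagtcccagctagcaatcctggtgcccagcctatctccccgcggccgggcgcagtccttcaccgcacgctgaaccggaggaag
Mdm2: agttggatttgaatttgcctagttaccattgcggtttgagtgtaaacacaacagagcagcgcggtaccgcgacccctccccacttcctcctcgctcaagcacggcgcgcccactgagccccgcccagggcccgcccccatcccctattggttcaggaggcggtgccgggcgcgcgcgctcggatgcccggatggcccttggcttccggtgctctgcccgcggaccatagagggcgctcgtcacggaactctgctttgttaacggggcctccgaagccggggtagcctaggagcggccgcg
Eda2r: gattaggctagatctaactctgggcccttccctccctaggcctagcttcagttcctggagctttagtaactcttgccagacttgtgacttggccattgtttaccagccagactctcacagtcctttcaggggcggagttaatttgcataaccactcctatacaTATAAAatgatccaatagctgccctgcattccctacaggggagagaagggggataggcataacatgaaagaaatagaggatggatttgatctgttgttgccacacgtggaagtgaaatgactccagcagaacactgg

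Windows were found for 7 of the 10 genes (10 windows, since Bcl2l1 has several); Bax, Bbc3 and Zmat3 had no entry. They were searched for the p53 consensus element of 20 bases, made of 2 adjoining decamers, with at most 1 mismatch; the consensus reads the same on both strands. The Ccng1 window held it, beginning 242 bases before the start, and the other 6 genes' windows did not. Among all 33469 windows, 24 (0.0717%) held it. At least 1 exact decamer was present in 7.98% of all windows and, among the 7 genes, in Ccng1 only. The same search found the element in Cdkn1a and Gtse1 among the 42 other p53 targets that had a window. Their elements are set beside that of Ccng1, with the decamer that matches the consensus exactly in capitals.
Ccng1 element: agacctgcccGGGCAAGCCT
Cdkn1a element: GAACATGTCTtgacttgttc
Gtse1 element: gagcaagctgGGGCTTGTCC
A match is a description of letters and not a site shown to be bound. A window without a match says nothing of elements elsewhere in or near the gene, since only these 300 bases were searched. The letters TATAAA (both strands) occurred in 14.2% of all windows and, among the 7 genes, once each in Eda2r and Bcl2. CCAAT (both strands) occurred in 37.5% of all windows and 3 times in that of Ccng1, and in those of Mdm2 and Eda2r once each. The number of CG pairs was 31 in Mdm2, 18 in Ccng1 and 2 in Eda2r, against a median of 7 over all windows.

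Of the 10 genes, 4 were at least 1.5-fold lower in Slit1 and 0 were at least 1.5-fold higher. These calls rest on log2(TPM + 1) in Slit1 less that in vector, for genes whose mean TPM was 1 or more. Adding the pseudocount of 1 makes changes of scarce genes look smaller. All 10 genes passed that floor, Bcl2 at a mean of 2.01 TPM. Of all 13175 genes tested, 4.83% were lower by that limit and 3.72% higher. The median difference over the 10 genes was -0.41, and over all tested genes it was -0.05. In 8 of the 10 genes the difference was below 0, as in 7383 of the 13175. The genes lower by the limit were Eda2r, Mdm2, Ccng1 and Pmaip1. In counts per 1000000 (CPM), with or without edgeR TMM factors, 2 genes were lower by the limit, Eda2r and Mdm2, beside 3.45% of all tested genes with TMM factors and 3.55% without.

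**Figure D1:**
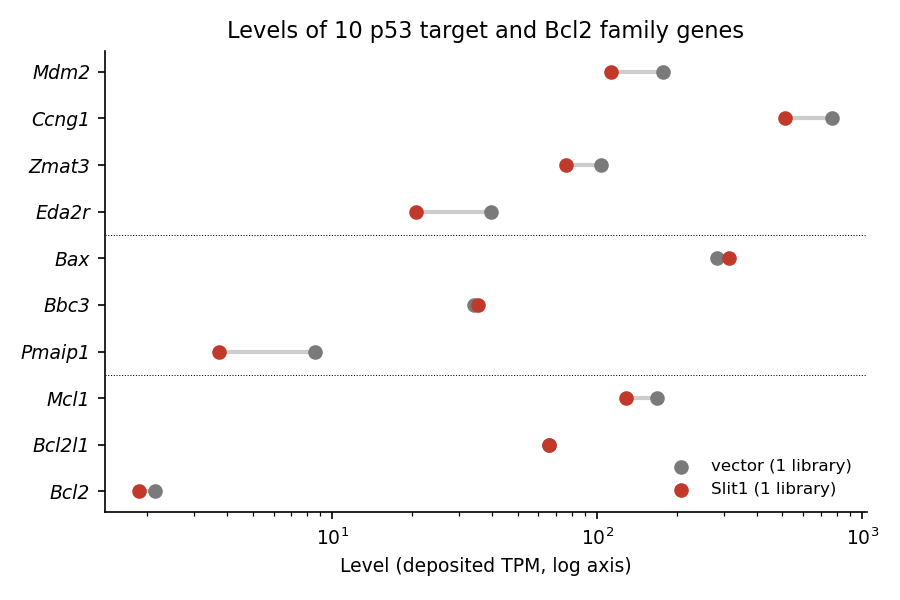
Level of each gene in deposited TPM (log axis) in the vector library (grey) and the Slit1 library (red), with dotted lines between p53 targets outside the Bcl2 family (top), proapoptotic genes (middle) and antiapoptotic genes (bottom). The 4 genes at the top are all lower in Slit1, while Bax, Bbc3 and Bcl2l1 nearly coincide.

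Mdm2, the feedback gene, was at 177.6 TPM (4221 estimated counts) in vector and 112.9 TPM (2801 counts) in Slit1. Its level in Slit1 was thus 1.57-fold lower, and the 95% counting interval ran from 1.499 to 1.65. This interval, exact by Clopper and Pearson for a pair of counts, covers counting error only and says nothing of the spread between cultures. On the log2 scale the difference of -0.65 was below that of all but 3.40% of tested genes. It was -0.590 with TMM factors and -0.596 with the trend on gene length removed, both only narrowly beyond the limit of 1.5-fold. Mdm4, a partner of Mdm2 that binds and silences p53, was at 51.99 and 48.9 TPM (ratio 0.941, interval 0.898 to 0.986). Mdm2 was 3.42 times the level of Mdm4 in vector and 2.31 times in Slit1.

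Ccng1 encodes cyclin G1, an atypical cyclin that acts in the Mdm2 feedback. It was the most abundant of the 10 genes in both libraries, at 769.7 TPM (20955 counts) in vector and 512.6 TPM (14527 counts) in Slit1. The ratio of 0.666 (interval 0.652 to 0.680) lay on the limit of 1.5-fold. Its log2 difference of -0.59 in TPM passed that limit narrowly. It was -0.54 after centring on the median gene, -0.53 with TMM factors, -0.54 in CPM, -0.54 in FPKM and -0.52 with the trend on gene length removed, and each of these 5 values fell short of the limit. The level was lower in Slit1 under all of these scalings.

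Eda2r encodes a receptor of the TNF family that binds the EDA-A2 form of ectodysplasin. It was at 39.6 TPM (2245 counts) in vector and 20.7 TPM (1171 counts) in Slit1. It was 1.92-fold lower (interval 1.78 to 2.06), and its log2 difference of -0.91 was below that of all but 1.03% of tested genes. The log2 difference lay between -0.94 and -0.75 over the alternatives tried, beyond the limit in each except that of 2-fold. Its ligand gene Eda, named after its values were seen, was scarce, at 1.90 and 1.39 TPM (80 and 61 counts).

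Zmat3 encodes an RNA-binding zinc finger protein induced by p53. It was at 103.6 TPM (6576 counts) in vector and 76.5 TPM (5054 counts) in Slit1, 1.35-fold lower (interval 1.31 to 1.41) and short of the limit. Long genes were somewhat lower than short ones in Slit1, and Zmat3 has the greatest length of the 10 that counts and FPKM imply, 7345 bases. With the length trend removed its log2 difference was -0.27 in place of -0.43. That of Eda2r, next in length at 6424 bases, was -0.75 in place of -0.91.

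**Figure D2:**
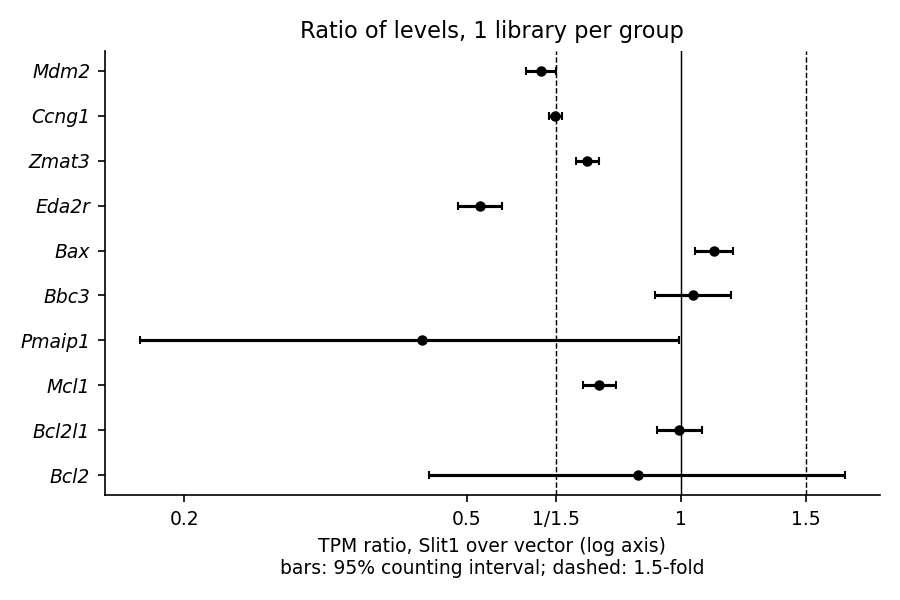
Ratio of TPM, Slit1 over vector (log axis), for each gene, with 95% counting intervals as bars and dashed lines at 1.5-fold. Eda2r, Mdm2, Ccng1, Zmat3 and Mcl1 have narrow intervals below 1, and those of Pmaip1 and Bcl2 are wide.

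Of the 3 proapoptotic genes that p53 also controls, Pmaip1 was lower by the limit and Bax and Bbc3 were not. Bax, which forms pores in the outer mitochondrial membrane, was at 283.9 TPM (1922 counts) in vector and 315.6 TPM (2224 counts) in Slit1, a ratio of 1.11 (interval 1.05 to 1.18). Bbc3 was at 34.2 TPM (512 counts) and 35.5 TPM (522 counts), and the interval of its ratio held 1 (1.04, 0.919 to 1.18). Neither of these was lower in Slit1. Pmaip1 was at 8.60 TPM (19.99 counts) in vector and 3.72 TPM (9 counts) in Slit1, 2.31-fold lower. Its interval reached from 1.01-fold to 5.77-fold lower. In CPM its log2 difference was -0.48 in place of -1.02, since at so few counts the pseudocount of 1 weighs more there. With so few counts, and an interval in TPM that begins at 1.01-fold, neither the size nor the direction of the Pmaip1 difference was secure.

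The survival genes were led by Mcl1, a short-lived guard protein. It was at 167.6 TPM (3008 counts) in vector and 128.7 TPM (2411 counts) in Slit1, 1.302-fold lower (interval 1.23 to 1.37) and short of the limit. Bcl2l1, whose long protein form Bcl-xL restrains Bax, was at 66.0 TPM (1452 counts) and 65.7 TPM (1479.98 counts), with a ratio of 0.995 (interval 0.925 to 1.07). The sign of its log2 difference of -0.01 turned under the other scalings, up to 0.04. Bcl2, which gave the family its name, was scarce, at 2.15 and 1.87 TPM from 21 and 19 counts. Its interval, 0.442 to 1.70, holds differences of 1.5-fold in either direction, so a difference of that size was not detectable at this depth. Mcl1 was 2.54 times the level of Bcl2l1 in vector and 1.96 times in Slit1, and Bcl2l1 was 30.7 and 35.1 times that of Bcl2.

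By counting error alone, the interval of the ratio lay wholly below 1 in 6 of the 10 genes and wholly above 1 in 1. Over all tested genes these shares were 33.5% and 22.3%. The order of levels in vector was Ccng1, Bax, Mdm2, Mcl1, Zmat3, Bcl2l1, Eda2r, Bbc3, Pmaip1 and Bcl2. In Slit1 it was Ccng1, Bax, Mcl1, Mdm2, Zmat3, Bcl2l1, Bbc3, Eda2r, Pmaip1 and Bcl2, so that Mdm2 and Mcl1 changed places, as did Eda2r and Bbc3. Summed over the 10 genes the level was 1653 TPM in vector and 1274 TPM in Slit1, and most of that gap was in Ccng1.

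**Figure D3:**
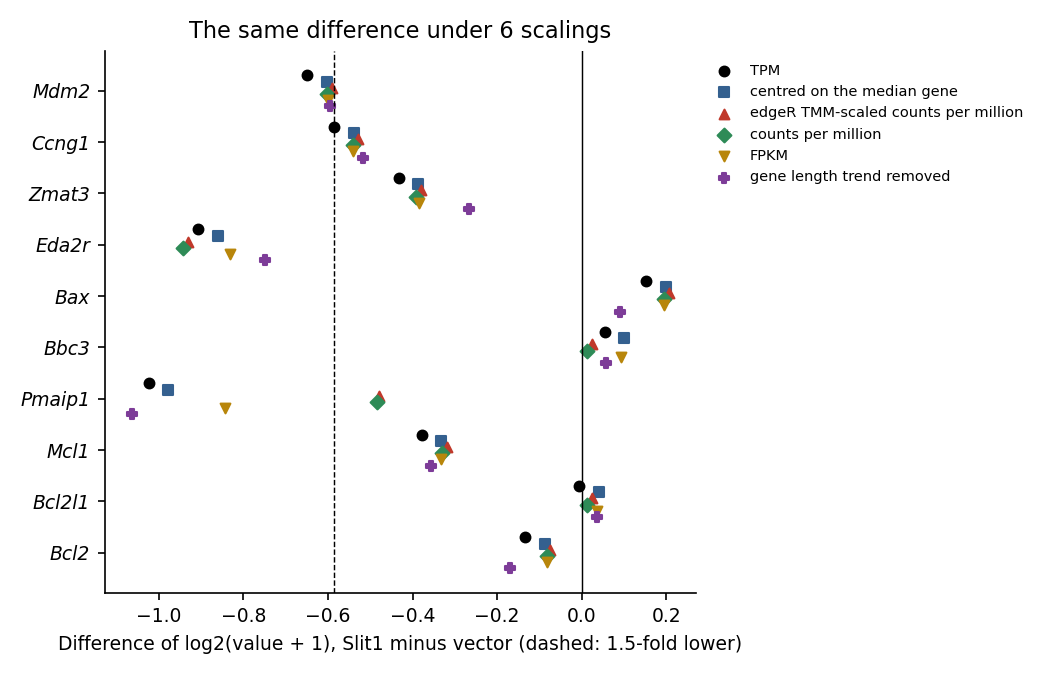
Difference of log2(value + 1), Slit1 minus vector, of each gene under 6 scalings of the same table (symbols), with a dashed line at 1.5-fold lower. Eda2r and Mdm2 stay beyond the line under all 6, Mdm2 narrowly with TMM factors and with the length trend removed. Ccng1 passes it only in TPM, and Pmaip1 falls short of it in CPM with and without TMM factors.

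The other genes of the p53 pathway were taken from lists that, like the 10 genes, were chosen with earlier results of these data known. Of 14 tested genes in the list of p53 regulators, 1 lay past the limit on the lower side and 0 on the higher, and the median log2 difference was -0.09 (-0.09 to 0.01 over the alternatives). The lower gene was Hipk2, a kinase that activates p53, whose level went from 9.81 to 4.55 TPM (2.16-fold, interval 1.81 to 2.57). The DNA damage kinase gene Atr was next, at 8.53 and 5.49 TPM (log2 difference -0.55), and Ep300, an acetyltransferase that p53 recruits, had a log2 difference of -0.18.

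Of 27 tested p53 targets of arrest, repair and metabolism, 2 were lower by the limit and 0 higher, and the list's median was -0.21. Gdf15, a stress-induced secreted factor, was at 66.3 TPM in vector and at 37.6 TPM in Slit1, which is 1.76-fold lower (interval 1.52 to 2.05). Rrm2b, the p53-induced subunit of ribonucleotide reductase, was at 25.9 and 16.4 TPM (1.58-fold lower), from counts of 936.8 and 686 that were 1.37-fold lower. Cdkn1a (p21), the cyclin-dependent kinase inhibitor through which p53 stops the cell cycle, was at 464.2 and 314.3 TPM (1.48-fold lower, interval 1.43 to 1.53), just short of the limit.

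Of 19 tested p53 targets of cell death, 2 were lower by the limit and 0 higher, and the list's median was -0.16. These were Tp53inp1, a nuclear protein of autophagy and cell death, at 91.3 and 60.0 TPM (1.52-fold lower, interval 1.45 to 1.60), and the death receptor gene Tnfrsf10b, at 9.66 and 6.07 TPM (1.59-fold lower, interval 1.27 to 2.01). After centring on the median gene, with TMM factors, in CPM, in FPKM or without the length trend, 0 of this list passed the limit. Fas, another death receptor, was at 87.2 and 60.5 TPM (log2 difference -0.52). Of the 46 genes tested in both target lists together, 33 had a difference below 0 and 13 above, beside 7383 of all 13175 tested genes below 0. The median of the 46 was -0.19, between -0.21 and -0.14 over the alternatives, against -0.05 for all tested genes. By the limit 4 of the 46 were lower, beside 4.83% of all tested genes.

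**Figure D4:**
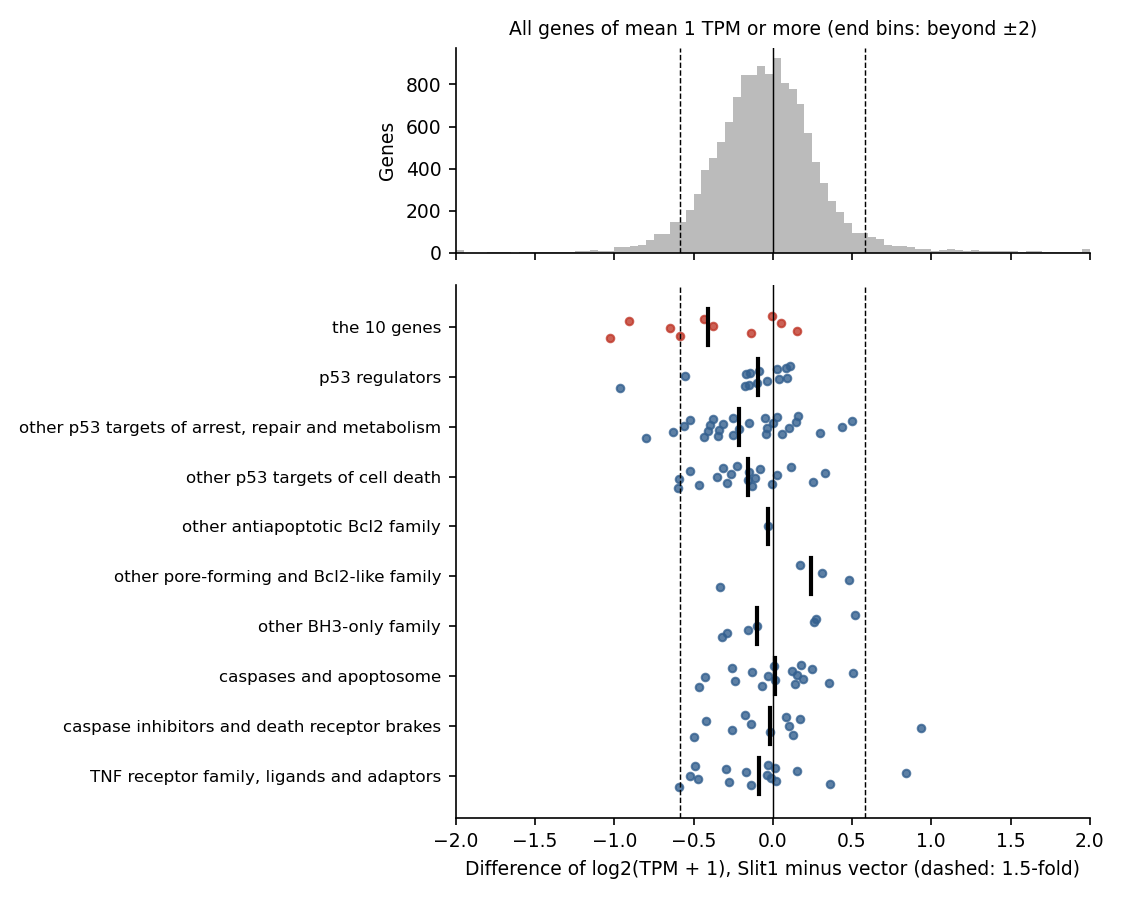
Top, number of genes (of 13175) by difference of log2(TPM + 1), Slit1 minus vector; bottom, the same difference for each tested gene of the 10 and of 9 lists (points), with medians as black bars and dashed lines at 1.5-fold. The median of the 10 genes is -0.41, those of both lists of other p53 targets are -0.21 and -0.16, and that of caspases and apoptosome is 0.02.

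The other Bcl2 family genes stayed within the limit of 1.5-fold. Of 4 tested pore-forming and Bcl2-like genes 0 passed it, with a median log2 difference of 0.24. Bcl2l12 (0.48) and Bok, a pore-forming relative of Bax (0.31, at 29.6 and 36.9 TPM), were the highest, and Bcl2l13 (-0.33) was the lowest. Of 7 tested BH3-only genes 0 passed it, with a median of -0.10 (-0.16 to 0.01 over the alternatives). Moap1, which binds Bax (0.52, at 30.8 and 44.6 TPM), Bnip3, a mitophagy receptor (-0.32), and Bid, which links death receptors to mitochondria (-0.29), differed most. Bcl2l2 (Bcl-w), the other antiapoptotic gene that passed the floor, was at 42.7 and 41.8 TPM.

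Summed over 6 antiapoptotic genes, the level was 278.6 TPM in vector and 238.3 TPM in Slit1, a ratio of 0.855. Mcl1 made up 60.2% of it in vector and 54.0% in Slit1. The 3 pore-forming genes Bax, Bak1 and Bok summed to 417.9 and 470.1 TPM, a ratio of 1.12. The sum of 8 classical BH3-only genes was 238.7 and 252.0 TPM, a ratio of 1.06, but with Bnip3, Bnip3l and Moap1 added it was 480.3 and 477.95 TPM, a ratio of 0.995, so its direction depends on which genes are counted. Bax was 1.69 times the level of Mcl1 in vector and 2.45 times in Slit1, and 4.30 and 4.81 times that of Bcl2l1. These are ratios of mRNA levels per length, each from 1 library.

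**Figure D5:**
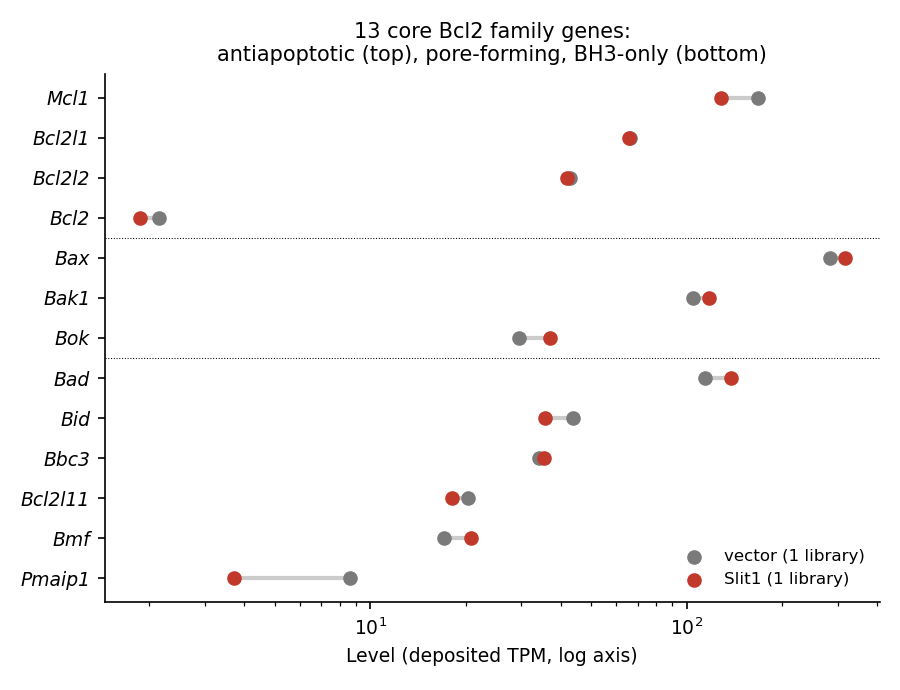
Levels in deposited TPM (log axis) of 13 core Bcl2 family genes whose mean reached 1 TPM (Bcl2l12, Bcl2l13, Bnip3, Bnip3l and Moap1 are not drawn), in the vector library (grey) and the Slit1 library (red). Mcl1 lies lower in Slit1 and Bax, Bak1, Bok and Bad lie higher, with Bcl2 and Pmaip1 the scarcest.

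The steps after mitochondrial release were measured as lists too. Of 17 tested caspases and apoptosome genes, 0 passed the limit, with a median log2 difference of 0.02. Among those that differed most were Endog, a mitochondrial nuclease (0.51), and Apaf1, the scaffold of the apoptosome and a p53 target (-0.46, at 17.8 and 12.7 TPM). Of 11 caspase inhibitors and related brakes, 1 was higher and 0 lower, with a median of -0.02. The higher gene was Faim2, an inhibitor of Fas-driven death (7.19 and 14.7 TPM, 2.04-fold, interval 1.62 to 2.57). Xiap, a direct caspase inhibitor, was at 35.7 and 25.0 TPM (-0.50), and Cflar, which blocks caspase 8, had a difference of -0.42.

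Among the TNF receptor family, ligands and adaptors, to which Eda2r belongs, 1 of 16 tested genes lay past the limit on each side, and the median log2 difference was -0.09. The lower was Tnfrsf10b, given above, and it passed the limit in TPM only among the scalings. The higher was Tnfrsf19 (Troy), whose level was 15.4 TPM in vector and 28.4 TPM in Slit1, a ratio of 1.84 (interval 1.53 to 2.23).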

How the data were processed

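Total RNA of 2 cultures was sequenced, 1 library per group. The authors deposited 1 table of 17455 genes with FPKM, TPM and estimated read counts per library, per the file headers. The deposited TPM sum to 1000000 per library, and the deposited estimated counts need not be whole. Per the submitters' processing notes the build was mRatBN7.2; how reads were aligned, counted, assigned by strand and filtered is not stated in the sources used here. Value columns of other samples numbered 0.

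Differences of log2(TPM + 1), as Slit1 minus vector, were taken over genes whose mean TPM was 1 or more, with a limit of 1.5-fold; no test was possible with 1 library per group. Ratios carry exact (Clopper-Pearson) 95% counting intervals from the rounded counts (scipy 1.17.1). The calculation was tested on simulated data. The 10 genes and all lists were chosen with earlier results of these data known. The text names the 10 genes, Mdm4, Cdkn1a and, from each other list, genes past 1.5-fold or otherwise the largest differences up to 3; some genes that this rule takes in are not reported here. Gtse1 was named for its promoter and Eda after its values were seen. Alternatives were other pseudocounts, floors and fold limits, centring on the median gene, edgeR 4.0.16 TMM factors, counts per 1000000 (CPM), FPKM and removal of a lowess trend on length (span 0.3). Promoter sequences came from RefSeq (GRCr8), and 98.6% of gene numbers were found in its gene table. By that table, of the 10 genes only Bcl2 and Bcl2l1 overlap other annotated genes, and Bax, Bcl2l1 and Mcl1 have a named pseudogene, with which reads can be shared.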

Additional observations from a re-analysis of the deposited data

How the results depend on the processing

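No paired analysis was possible because each group has 1 library, and no library could be left out. The number of the 10 genes at least 1.5-fold lower was 4. It was 2 with edgeR TMM factors, 2 in CPM and 1 at a limit of 2-fold, and 3 with a pseudocount of 5, after centring on the median gene, in FPKM and with the length trend removed. In CPM, with or without TMM factors, Ccng1 and Pmaip1 fell short of the limit. For Pmaip1 the pseudocount weighs more in CPM. Ccng1 lies on the limit, and counts and FPKM implied the same length for it in both libraries, 3149 bases. The median of all tested genes was also lower in TPM than in CPM, at -0.047 against -0.008. At a limit of 1.3-fold the number was 6. The share of all tested genes that were lower moved too, from 4.83% to 13.6% at 1.3-fold, 0.645% at 2-fold, 2.1% with a pseudocount of 5, 3.72% after centring on the median gene, 2.74% in FPKM and 3.6% with the length trend removed. None of the 10 was higher by the limit under any of the 11 alternatives. The median difference of the 10 genes lay between -0.43 and -0.31 over the alternatives. Of all genes past 1.5-fold, 43.5% were higher in Slit1, a share that was 54.3% after centring on the median gene, 54.2% with TMM factors, 54.5% in FPKM and 53.6% with the length trend removed, while Eda2r and Mdm2 were lower by the limit in each. The number of other p53 targets lower by the limit, 4 of 46, was 2 after centring on the median gene. It was 1 with TMM factors, in CPM, in FPKM, with the length trend removed or with a pseudocount of 5. The share of all tested genes lower was 3.45% with TMM factors and 3.55% in CPM, and for the other settings it is given above. Depth limits Pmaip1 and Bcl2, each with under 25 counts per library.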

Other observations

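The p53 element of 20 bases was found in the promoter windows of 21 genes in all, of which 8 were at a mean of 1 TPM or more. Their median log2 difference was -0.38, with 5 below 0 and 3 above, beside 7383 of all 13175 tested genes below 0. Of those below 0, Ccng1, Cdkn1a and Gtse1 belong to the 10 genes or the lists, which were chosen with earlier results of these data known. Outside these, Clec2gl1 (-1.15) and Cibar2 (-0.36) were below 0, and LOC102549694 (0.18), Rnps1 (0.21) and Tmsb15b2 (0.28) above. Whether the element goes with lower levels was not tested. At least 1.5-fold lower were 2 of the 8, Ccng1 and Clec2gl1, beside 4.83% of all tested genes. Ccng1 passed the limit narrowly and, among the scalings, in TPM only. Clec2gl1 was at 4.63 TPM in vector and 1.53 TPM in Slit1 and was named after its values were seen. Cdkn1a (-0.56) and Gtse1 (-0.39), a regulator of p53 in G2 phase at 76.5 and 57.97 TPM, were also below 0. Of 769 tested genes with at least 1 exact decamer in their window, those with the element included, 5.33% were lower by the limit. Of 9976 without one 4.401% were, and the medians were -0.06 and -0.04.

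Counts and TPM disagreed for a few genes of the lists, seen as a length implied by counts and FPKM that differed between the libraries. That length is computed from these values, so it restates the disagreement and does not explain it. Of 106 genes among the 10 and the lists with at least 100 counts in both libraries, 6 had an implied length that differed by over 10%, and none of the 8 such genes among the 10 did. Zmat1, a relative of Zmat3, had a length 20.5% shorter in Slit1, with counts of 618 and 482 but levels of 12.6 and 11.9 TPM. Bcl2l13 had a length 15.0% greater in Slit1, with counts of 2300.4 and 2172 and levels of 44.5 and 35.1 TPM. In Rrm2b it was 11.4% greater. The cause was not tested.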
